A study of Drosophila melanogaster with 3 samples.

Results

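The regions described here are the sites bound by the MCM2-7 complex in the interior of the X chromosome of Kc167 cells, away from both chromosome ends. They were chosen by position alone: every region of the whole-series list on X whose first base lay between 2 and 20.4 Mb on FlyBase release 5.1, an interval of 18.4 Mb. This gave 1255 of the 7029 regions of that list. The same interval held 1855 of 10679 peaks in MCM replicate 1 and 1484 of 8553 in MCM replicate 2, and these lists supplied the replicate values. Both replicates were chromatin immunoprecipitations with a mouse monoclonal antibody raised against the purified yeast complex, made from differently numbered chromatin extractions, and together they form a single group. Kc167 is an established female line derived from Drosophila melanogaster embryos, here with the genotype se/e and grown as an asynchronous culture, so each list averages over cells at all stages of the cell cycle. An input sample of the same line belongs to the design, and no values of it were analysed here. The labels do not say that the extractions came from separate cultures, so the SDs below show how far 2 samples lie apart, and that distance may be technical.

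The MCM2-7 complex is the ring-shaped motor of the replicative DNA helicase. It is loaded onto DNA as an inactive double ring during G1, at sites chosen by the origin recognition complex, and only a minority of the loaded rings are switched on in the following S phase, while the others serve as reserve origins or are pushed off by passing forks. Sites of MCM binding therefore mark potential rather than used origins, and in flies they are not defined by a fixed DNA sequence. In male flies the single X is transcribed at a raised rate by the dosage compensation complex. Kc167 is a female line, in which that complex does not act on X.

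Each list gives the first and last base of every called peak and a score assigned by the authors in an unstated unit, so scores were compared only between chromosomes within a list and between peaks at the same place. The depth behind each peak is unknown, because the lists hold no read numbers. Replicate 1 had more peaks than replicate 2 on X and on every arm described below, so ratios between chromosomes were formed within each replicate before averaging. The regions of the whole-series list are the merged extents of overlapping peaks of both replicates and add no independent measurement. The 2 immunoprecipitations form a single group and neighbouring peaks are not replicates, so no p-value was computed, and every comparison is given by its value in each replicate. The background was the same interval, between 2 and 20.4 Mb, of the autosomal arms 2L, 3L and 3R.

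The 1255 regions of the X interior covered 357 kb, or 1.94% of the interval. Their median width was 215 bp (interquartile range 137 to 347.5 bp), the narrowest was 17 bp and the widest 2989 bp. Their scores ran from 1.39 to 9.87 around a median of 2.63 (interquartile range 2.15 to 3.37). Most regions were simple, with 1198 of 1255 (95.5%) built from a single peak of each replicate. In 42 regions (3.35%) a single peak of replicate 1 overlapped 2 peaks of replicate 2, and in 14 regions (1.12%) the reverse held. Replicate 1 covered more bases than replicate 2 in 893 regions and fewer in 351. At the edges of the interval, the first member lay from 2006820 to 2006960 with a score of 1.87, and the last region before it from 1996491 to 1996620 with 3.02. The last member lay from 20395735 to 20396282 with a score of 1.99, and the next region toward the centromere began at 20507913, with a score of 2.71.

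MCM peaks were more closely packed in the X interior than in the same interval of any of the 3 autosomal arms. The mean density of the X interior was 90.7 ± 14.3 peaks per Mb (SD, n = 2), against 79.9 ± 13.0 on 3R, 79.0 ± 13.3 on 3L and 66.8 ± 12.5 on 2L (SD, n = 2 each). Replicate 1 gave 100.8 peaks per Mb on X, against 89.1 on 3R, 88.4 on 3L and 75.7 on 2L. Replicate 2 gave 80.7 on X, against 70.7 on 3R, 69.7 on 3L and 58.0 on 2L. X was the highest in each replicate, but the replicates differed by more than X did from 3R or 3L, and X in replicate 2 lay below both in replicate 1. Within replicates the order was steady. The ratio of X to the 3 arms together was 1.21 ± 0.0179 (SD, n = 2), and to single arms it was 1.36 ± 0.0418 for 2L, 1.15 ± 0.0123 for 3L and 1.14 ± 0.00627 for 3R (SD, n = 2 each). The 3 arms differed among themselves by about as much, as 2L stood further below 3L and 3R than these stood below X.

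The difference was larger in covered bases than in peak number. MCM peaks covered 1.78% ± 0.371 of the X interior (SD, n = 2), against 1.34% ± 0.262 of the 3 autosomal intervals together, a ratio of 1.32 ± 0.0174 (SD, n = 2) with 1.34 in replicate 1 and 1.31 in replicate 2. The median peak was hardly wider on X, with 138 ± 1.41 bp against 132 ± 0 bp on the 3 arms together (SD, n = 2 each), a ratio of 1.05 ± 0.0107 (SD, n = 2). When each list was restricted to the 50% of its peaks with the higher score, that ratio turned to 0.989, so the typical width gives no steady difference. Wide peaks gave a clearer one. Peaks of 600 bp or more made up 4.47% of X peaks in replicate 1 and 3.57% in replicate 2, against 2.94% and 2.36% on the 3 arms together, and X was above each single arm in both replicates.

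**Figure D1:**
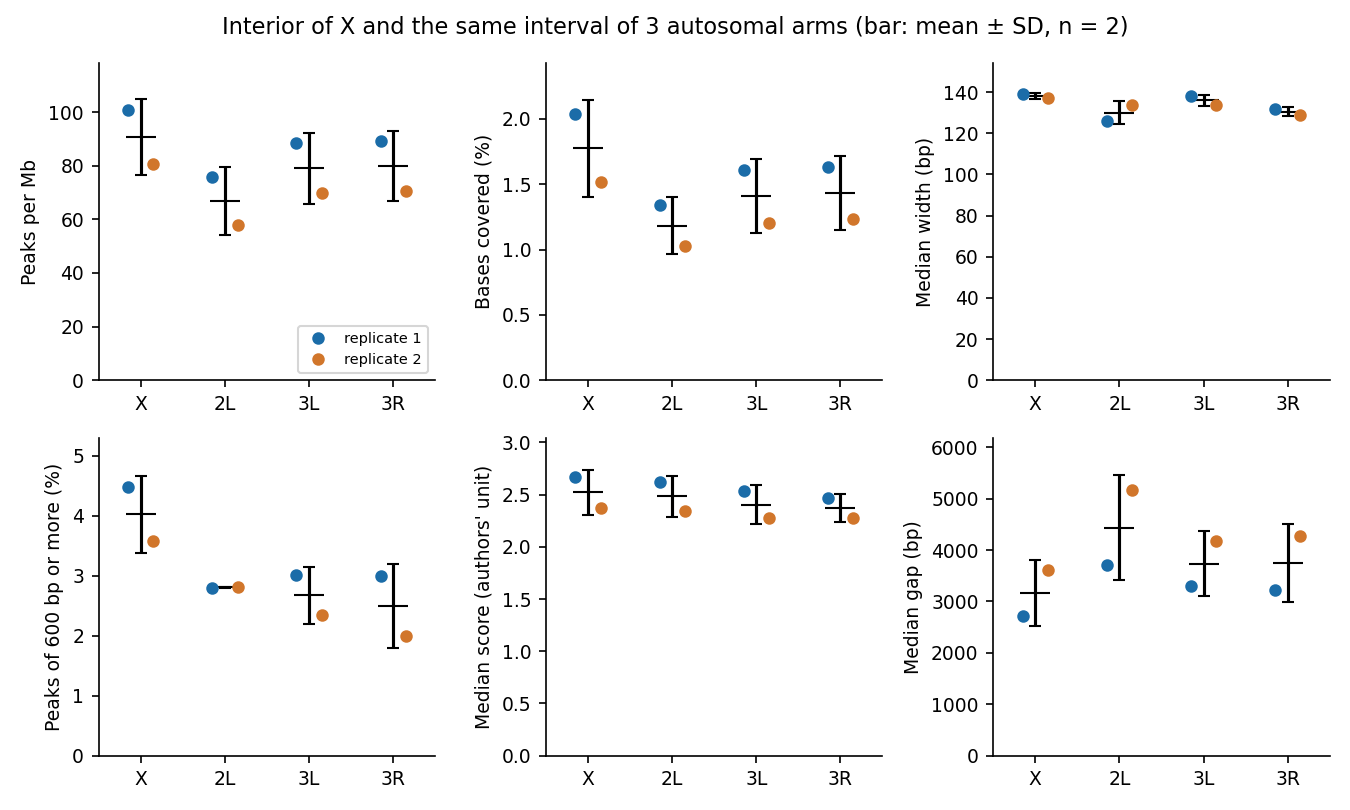
Measures of MCM peaks in the interior of X and in the same interval of 2L, 3L and 3R: peaks per Mb, percent of bases covered, median width in bp, percent of peaks of 600 bp or more, median score in the authors' unit and median gap in bp. Dots are single replicates and bars the mean ± SD (n = 2); X had the most peaks per Mb (100.8 and 80.7) and the shortest median gap (2718.5 and 3620 bp) of the 4 intervals in each replicate.

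Scores differed little between the chromosomes in the middle of their range and more at the top. The median score on X was 2.67 in replicate 1 and 2.37 in replicate 2, against 2.54 and 2.30 on the 3 arms together, a ratio of 1.04 ± 0.0157 (SD, n = 2). The arm 2L came closest, with 2.62 and 2.35 in replicates 1 and 2, and in the whole-series list its median of 2.63 was equal to that of X at this precision. Among the 500 highest scores of replicate 1, 122 peaks lay in the X interior, against 82 on 2L, 74 on 3L and 46 on 3R. In replicate 2 these counts were 108 on X, 63 on 2L, 67 on 3L and 54 on 3R. As a share of the peaks of each interval, this was 6.58% and 7.28% on X in replicates 1 and 2, against 5.89% and 5.90% on 2L, 4.55% and 5.23% on 3L, and 2.81% and 4.15% on 3R. X therefore led the 4 intervals in number and in share in both replicates. It did not hold the single highest score of the 4, which was 14.7 on 2L in replicate 1, against 11.2 on X, and 8.63 on 3L in replicate 2, against 8.51 on X. The 2L peak was at most 72 bp wide and overlapped a peak of replicate 2, while the 3L peak overlapped no peak of replicate 1. Those on X were 378 and 388 bp wide and overlapped a peak of the other replicate. In the whole-series list the highest score of the 4 intervals was also on 2L, 10.5 against 9.87 on X.

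Neighbouring MCM peaks were close together on X. In the middle of the distribution, 2718.5 bp separated neighbours in replicate 1 and 3620 bp in replicate 2 (medians), against 3435.5 and 4523 bp on the 3 arms together, a ratio of 0.796 ± 0.00640 (SD, n = 2). More peaks in an interval of equal length leave shorter gaps on average, and the ratio of mean gaps was 0.827 ± 0.0110 (SD, n = 2). The shorter gaps thus mostly restate the higher density. No peak lay closer than 200 bp to the next in either replicate, on X or on any of the 3 arms. A neighbour within 1 kb was present for 54.5% of X peaks in replicate 1 and 47.7% in replicate 2, against 48.5% and 44.4% on the 3 arms. The gaps were uneven as well as short, and their coefficient of variation was 2.08 ± 0.0944 on X (SD, n = 2), against 1.93 ± 0.0853 on the 3 arms together (SD, n = 2), with a ratio of 1.08 in both replicates.

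X had more gaps than each arm both up to 5 kb and from 5 to 20 kb, and most of the surplus was in those of up to 5 kb. A surplus of gaps follows from the larger number of peaks, so these counts are not a difference apart from density. Gaps of up to 5 kb numbered 1182 on X in replicate 1, against 961 on 3R, 950 on 3L and 784 on 2L. In replicate 2 there were 848 on X, against 688 on 3R, 681 on 3L and 524 on 2L. Gaps of 5 to 20 kb numbered 444 and 389 on X in replicates 1 and 2, against 412 and 344 on 3R, 426 and 346 on 3L, and 358 and 298 on 2L. Gaps of over 20 kb showed no surplus, with 228 and 246 on X in replicates 1 and 2, against 265 and 268 on 3R, 250 and 254 on 3L, and 250 and 244 on 2L. Their mean was lowest on X, at 237 ± 12.7, against 266.5 ± 2.12 on 3R, 252 ± 2.83 on 3L and 247 ± 4.24 on 2L (SD, n = 2 each).

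**Figure D2:**
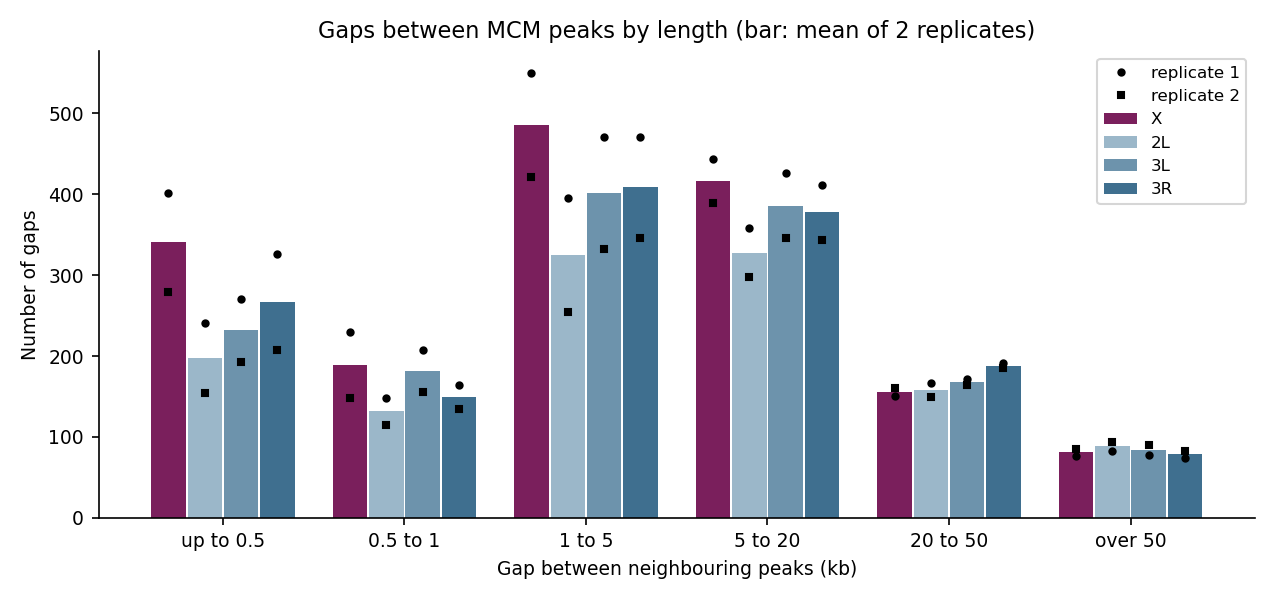
Number of gaps between neighbouring MCM peaks by gap length in kb, in the interior of X and the same interval of 2L, 3L and 3R. Bars are the mean of 2 replicates, circles replicate 1 and squares replicate 2; X stood above the arms in the class of 1 to 5 kb, with 550 and 421 gaps in replicates 1 and 2, and not in the class of over 50 kb, with 77 and 85.

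The same pattern appeared when peaks with gaps of at most 5 kb were joined into runs. The X interior held 673 runs in replicate 1 and 636 in replicate 2, close to 678 and 613 on 3R and 677 and 601 on 3L, and above 609 and 543 on 2L. Each run held more peaks on X, with 2.76 and 2.33 peaks per run in replicates 1 and 2, against 2.42 and 2.12 on 3R, 2.40 and 2.13 on 3L, and 2.29 and 1.97 on 2L. Runs of 5 or more peaks numbered 101 and 72 on X, against 80 and 50 on 3R, 83 and 57 on 3L, and 63 and 36 on 2L. They held 38.4% ± 7.19 of all X peaks (SD, n = 2), against 30.7% ± 6.43 on the 3 arms together (SD, n = 2). A fixed joining distance links more neighbours wherever peaks are denser, so these counts restate the short gaps and are not a further difference.

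Longer runs on X were made of wider regions with no higher scores. In the whole-series list, 330 of the 1255 regions stood alone at this joining distance, 576 lay in runs of 2 to 4, 313 in runs of 5 to 9 and 36 in the 3 runs of 10 or more. The median width was 171 bp for regions standing alone, 215 bp in runs of 2 to 4, 252 bp in runs of 5 to 9 and 336.5 bp in runs of 10 or more. Regions of 600 bp or more made up 5.45%, 5.73%, 12.1% and 25% of these classes in the same order. The median scores, 2.69, 2.62, 2.67 and 2.45, did not follow the widths. On the 3 arms the median widths also ran upward with run length, from 186.5, 186 and 179 bp for regions standing alone on 2L, 3L and 3R to 290.5, 233.5 and 247 bp in runs of 5 to 9.

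The longest run of the X interior reached from 12628469 to 12650746, with 14 regions over 22.3 kb that covered 27.4% of it. It had 17 peaks in replicate 1 and 15 in replicate 2, and its highest score of 7.59 ranked as the third of all members. The next, from 12543573 to 12564829, held 12 regions over 21.3 kb and covered 31.1% of it, but its scores were low, with a median of 2.25 and a maximum of 3.85. These runs lie within 100 kb of each other. A run of 10 regions lay from 14957850 to 14984347 and covered 11.8% of its 26.5 kb. Of 6 runs with 9 regions, the first along the chromosome lay from 2186536 to 2200101. It had the largest covered share of these 4 named runs, as its regions of a median width of 969 bp covered 73.7% of 13.6 kb, with a median score of 1.91.

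Along the chromosome, MCM peaks were found in every megabase. In the 18 full windows of 1 Mb, the counts ran from 74 to 125 peaks in replicate 1 and from 57 to 101 in replicate 2. The lowest was the window from 4000001 to 5000000, with 74 and 57 peaks in replicates 1 and 2, and next to it in the order stood that from 14000001 to 15000000, with 77 and 58. The highest was from 6000001 to 7000000 in replicate 1, with 125 peaks, and from 19000001 to 20000000 in replicate 2, with 101. The same windows were high or low in both lists, since the counts had a Pearson's r of 0.911 and a Spearman's rho of 0.883 across these 18 windows, which share the lists' common peaks. In the last 0.4 Mb of the interval the density was 65.0 ± 10.6 peaks per Mb (SD, n = 2), at the level of the sparsest windows.

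At this scale the X interior varied less than the arms. The variance of the 1 Mb counts was 1.83 ± 0.0171 times their mean on X (SD, n = 2), against 4.16 ± 0.199 on 3R, 4.77 ± 0.418 on 3L and 7.42 ± 0.909 on 2L (SD, n = 2 each). On X the fullest window held 1.69 and 1.77 times as many peaks as the emptiest in replicates 1 and 2, against 1.90 and 2.04 times on 3R, 2.16 and 2.52 on 3L, and 3.45 and 4.0 on 2L. The coefficient of variation of the counts was 0.142 ± 0.0119 on X, against 0.230 ± 0.0130 on 3R, 0.247 ± 0.0317 on 3L and 0.334 ± 0.0110 on 2L (SD, n = 2 each). The result depends on where and how long the windows are. With windows moved by 500 kb, the variance was 3.29 ± 0.327 times the mean on X, still below 4.86 ± 0.677 on 3R, 7.14 ± 0.173 on 3L and 9.60 ± 2.85 on 2L (SD, n = 2 each). With windows of 800 kb it was 5.1 ± 0.560 on X (SD, n = 2), within the range of 4.67 to 6.49 of the means of the 3 arms. With windows of 2 Mb moved by 1 Mb, it was 1.78 ± 0.00323 on X, against 1.42 ± 0.660 on 3R (SD, n = 2 each), so X was then not the lowest.

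**Figure D3:**
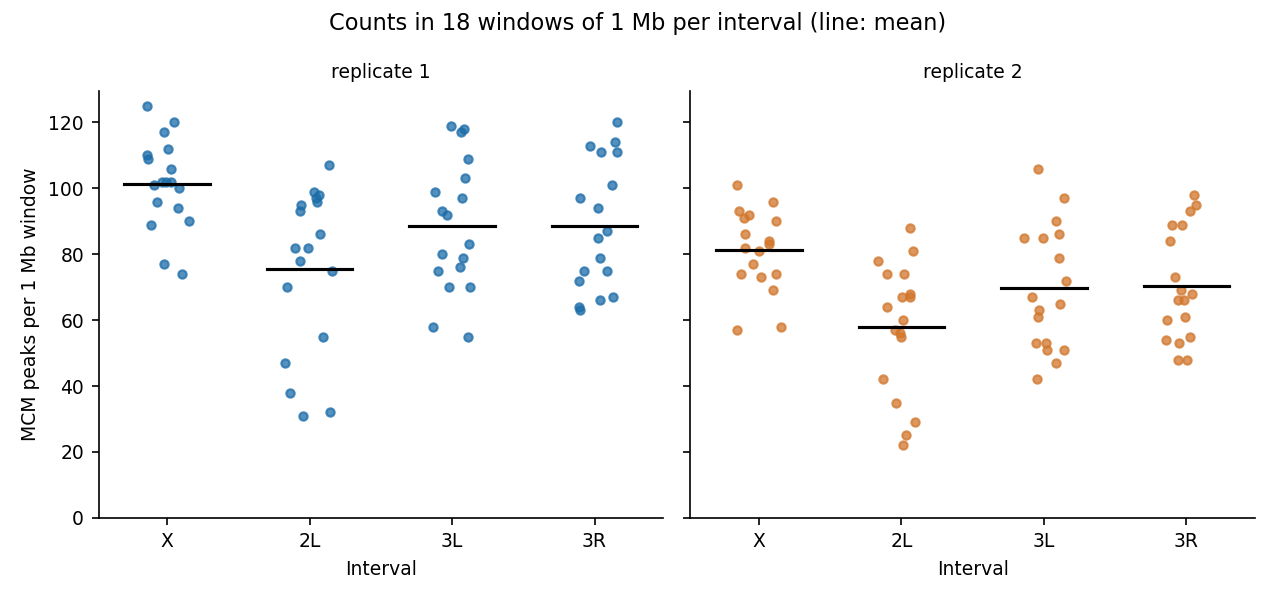
Number of MCM peaks in each of 18 windows of 1 Mb in the interior of X and the same interval of 2L, 3L and 3R, for replicate 1 (left) and replicate 2 (right). Each dot is a window and the line is the mean; the X windows ran from 74 to 125 and from 57 to 101 peaks, while those of 2L went down to 31 and 22.

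At 100 kb the order of the intervals depended on the measure and on the placement of the windows. The variance of the counts in windows of 100 kb was 4.86 ± 0.373 times their mean on X (SD, n = 2), against 4.57 ± 0.489 on 3R, 4.39 ± 0.469 on 3L and 4.54 ± 0.463 on 2L (SD, n = 2 each). X was the highest in each replicate, by less than the spread between replicates. The coefficient of variation was 0.734 ± 0.0297 on X, against 0.758 ± 0.0213 on 3R, 0.747 ± 0.0229 on 3L and 0.827 ± 0.0358 on 2L (SD, n = 2 each), so by it X was the lowest, again by less than that spread for 3R and 3L. With windows moved by 50 kb, this coefficient was 0.776 ± 0.0151 on X (SD, n = 2), between means of 0.739 on 3R and 0.789 on 3L. Of the unmoved windows, the median one on X held 9.5 peaks in replicate 1 and 7.0 in replicate 2, and the fullest held 30 and 28. Windows of 20 or more peaks numbered 21 and 10 on X in replicates 1 and 2, against 8 and 4 on 3R, 12 and 5 on 3L, and 8 and 3 on 2L. A fixed number is reached more often where peaks are denser. The 18 fullest windows held 23.6% and 24.5% of X peaks in replicates 1 and 2, the lowest share in each replicate. The arms had 24.5% and 25.8% on 3R, 24.8% and 25.4% on 3L, and 25.7% and 27.5% on 2L. Across all X windows of 100 kb, the counts of the replicates had a Pearson's r of 0.942 and a Spearman's rho of 0.955. Both counts contain the shared peaks. With only unshared peaks these values were 0.381 and 0.422.

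**Figure D4:**
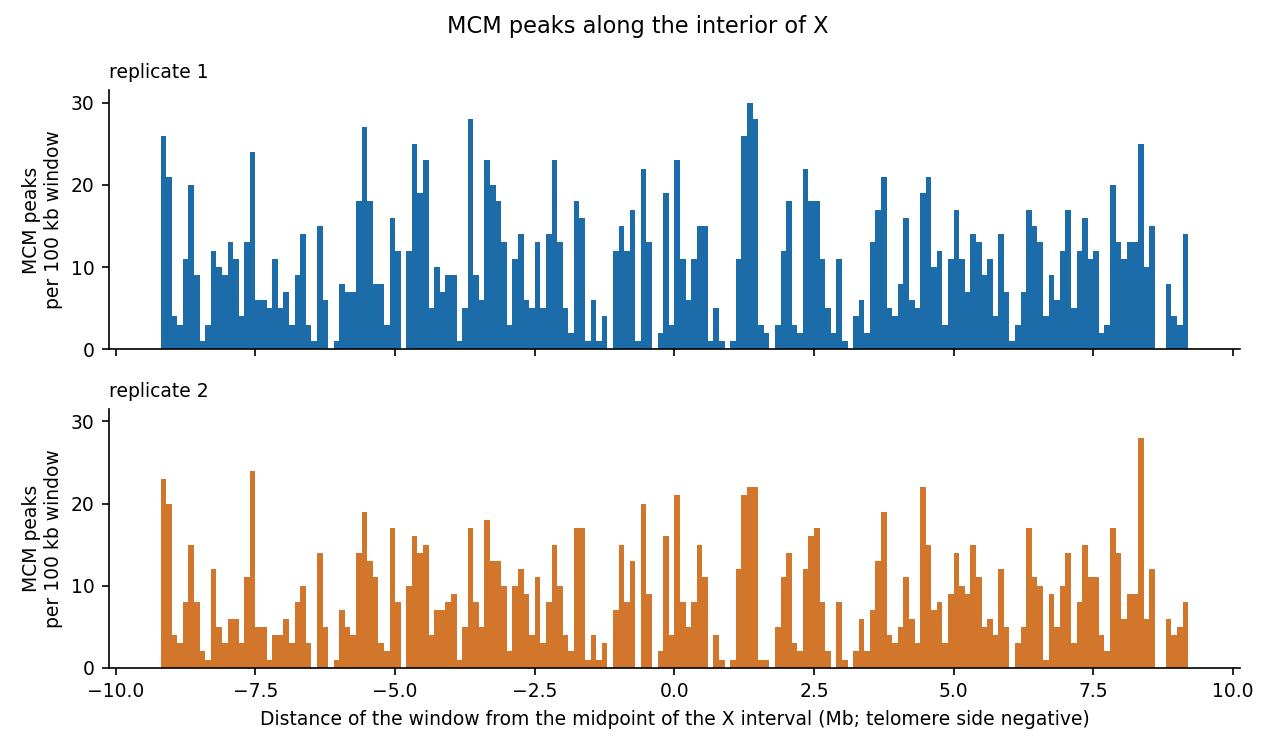
MCM peaks in each window of 100 kb along the interior of X, for replicate 1 (top) and replicate 2 (bottom), against the distance of the window from the midpoint of the interval in Mb. 9 windows were empty in both, 5 more in replicate 2 only, and the fullest held 30 and 28 peaks.

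The densest windows were scattered over the whole interval, and they differed in kind. The window from 19500001 to 19600000 held 22 regions, with 25 and 28 peaks in replicates 1 and 2, and the first window of the interval also held 22, with 26 and 23 peaks. Their regions were narrow, with median widths of 185.5 and 175 bp, and scored well above the members' median of 2.63, with medians of 3.20 and 3.24. The window from 3600001 to 3700000 held 21 regions, 18 of which scored above that median. By contrast, the window from 12500001 to 12600000 held 19 wide regions of low score, with a median width of 535 bp, a median score of 2.05 and only 2 regions above the members' median. It also had the most covered bases of the 6 densest windows, 10.8 kb. Its neighbour from 12600001 to 12700000 held 19 regions as well, with a median score of 3.05, and the window from 10600001 to 10700000 held 18.

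Stretches without MCM peaks were as frequent on X as elsewhere. There were 75 of over 50 kb without a peak of either replicate, against 71 on 3R, 77 on 3L and 82 on 2L, and together they made up 36.3% of the X interval, against 33.0%, 36.3% and 41.5% on 3R, 3L and 2L. The longest on X ran from 14216997 to 14474503, 258 kb, within one of the sparsest megabases. It was followed by 210 kb from 19792317 to 20002558, 204 kb from 4979864 to 5183856 and 182 kb from 10793553 to 10976006. The fifth and sixth, 175 kb from 11923111 to 12097727 and 166 kb from 12097842 to 12263446, were separated by a single region of 114 bp. Of the windows of 100 kb on X, 9 held no peak in either replicate, against 8 on 3R, 9 on 3L and 12 on 2L. In replicate 2 taken alone 14 X windows were empty, and 5 of these held peaks of replicate 1. Only the windows from 19800001 to 20000000 were empty next to each other, and they are the last 200 kb of a dense megabase, as the 82 regions that lay from 19000001 to 20000000 were all in its other 800 kb.

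The 4 most isolated regions of X had high scores, and those next in the order were mixed. Distances are between regions of the whole-series list, so an unshared peak of a replicate may lie nearer. The region between the paired empty stretches, from 12097728 to 12097841, lay 175 kb from the nearest other region and scored 4.34, with 4.71 in replicate 1 and 3.97 in replicate 2. The empty stretch on its other side ended after 166 kb at a peak outside the shared regions. The region from 12791292 to 12791443, 112 kb from any other region, scored 6.13, the 14th highest of all members, with 7.23 and 5.03 in replicates 1 and 2. Unshared peaks starting at 12861524 in replicate 1 and at 12861553 in replicate 2 lay nearer to it. The region from 9672600 to 9672921, 84.4 kb away, scored 3.93, and that from 2763647 to 2763719, 79.2 kb away, scored 4.37. All 4 scored above the upper quartile of 3.37. The next, 74.7 and 72.2 kb from any other and named after their values were seen, scored 1.98 and 2.04, below the lower quartile of 2.15. Of the 10 most isolated, 7 were above the upper quartile, although the 330 regions standing alone at 5 kb had a median of 2.69, close to that of all members. In all, 80 of the 1255 regions of X had no other region within 20 kb. On the arms these were 82 of 1107 on 3R, 75 of 1086 on 3L and 84 of 899 on 2L, so the share was lowest on X. Fewer regions stand alone at a fixed distance where regions are denser, so this share is not a difference apart from density.

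The 8 highest scores and the 8 greatest widths belonged to different regions. The highest score of X was 9.87, in the region from 15217285 to 15217679, with 11.2 in replicate 1 and 8.51 in replicate 2. The region from 11577449 to 11577885 scored 8.91, with 10.6 and 7.20 in replicates 1 and 2, and that from 12649074 to 12649292 scored 7.59, with 8.33 and 6.84. The fourth, from 17401058 to 17401133, was only 76 bp wide and 50931 bp from the nearest other region, and scored 7.15. The next 4, from 13277902 to 13278094, from 10496253 to 10496694, from 11908248 to 11908525 and from 13298359 to 13298924, scored 7.02, 6.62, 6.55 and 6.46. In all 8, replicate 1 scored above replicate 2. None of the 8 reached 600 bp, the widest being the last with 566 bp.

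Of the 8 widest regions, 6 lay at 2 places. The widest of all, 2989 bp from 2194460 to 2197448, and the second, 1531 bp from 2189432 to 2190962, both lay in the compact run from 2186536 to 2200101 and scored 1.64 and 1.98, among the lower scores. In the widest, a single peak of 2926 bp in replicate 1 overlapped 2 peaks of replicate 2, the longer of 2057 bp. Another 4 of the 8 widest lay between 12468646 and 12646768, with widths of 1425, 1427, 1337 and 1287 bp in order of position and scores of 2.28, 2.68, 1.78 and 3.84. The remaining wide regions were 1371 bp from 18527645 to 18529015, where replicate 2 had 3 peaks in place of the single peak of replicate 1, and 1316 bp from 10661412 to 10662727. Over all 1255 members, width and score had a Spearman's rho of 0.300 and a Pearson's r of 0.157, as a description of these regions. The median score was 2.42 for widths of 100 to 199 bp, 2.87 for 200 to 399 bp, 2.91 for 400 to 599 bp and 2.82 for 600 bp or more, and for the 24 regions of 1000 bp or more it was 2.56. Of the 98 regions of 600 bp or more, 9 (9.18%) were among the 100 highest scores, beside 7.97% of all members.

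**Figure D5:**
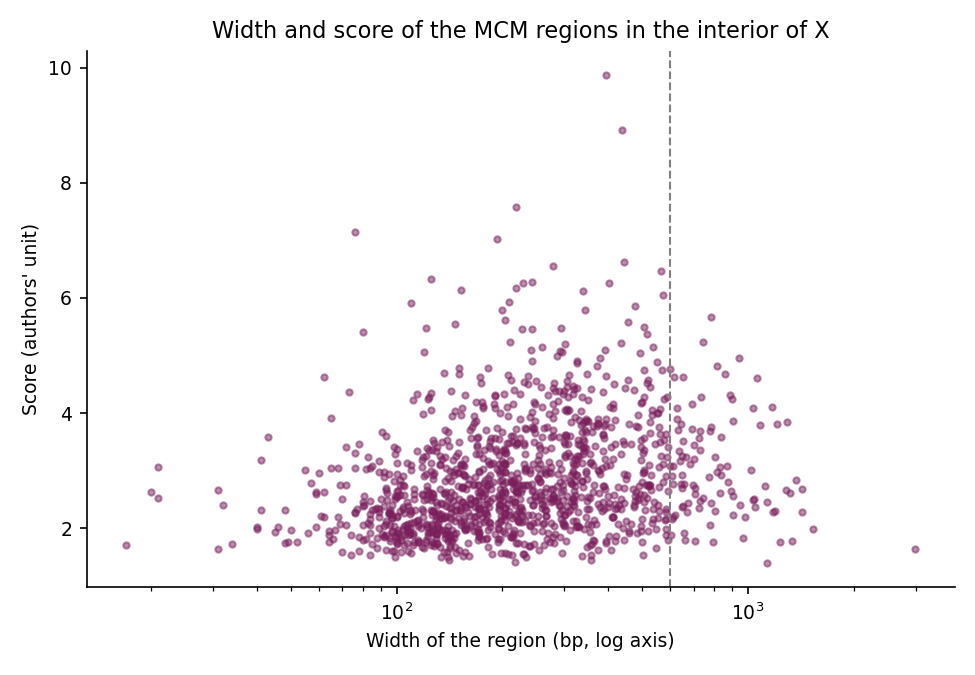
Score in the authors' unit against width in bp, on a log axis, for the 1255 MCM regions in the interior of X. Each dot is a region and the dashed line marks 600 bp; the 8 highest scores were found at widths of 76 to 566 bp, and the widest region, at 2989 bp, scored 1.64.

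Broad and high-scoring regions were unevenly placed along X. Regions of 600 bp or more made up 7.81% of all members. The megabase from 12000001 to 13000000 held 13 of these 98, which were 19.7% of its regions. It also had the largest median width, 334.5 bp, and the most covered bases, 27.5 kb. The first megabase of the interval held 11 broad regions (13.6% of its regions) and that from 13000001 to 14000000 held 10 (13.0%). That from 14000001 to 15000000 held 1 (1.89%). Of the 100 highest scores, 12 lay from 13000001 to 14000000, 11 from 19000001 to 20000000 and 10 in the first megabase of the interval. These were 15.6%, 13.4% and 12.3% of the regions there, beside 7.97% of all members. None of the 53 regions from 14000001 to 15000000 was among them. The sparse megabase around the longest empty stretch was thus also poor in broad and high-scoring regions. Across the 18 full windows, the number of regions had a Spearman's rho of 0.322 with the median score and of -0.164 with the median width.

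The replicates placed MCM at the same positions in the X interior about as often as elsewhere. Of 1855 replicate 1 peaks, 1269 (68.4%, exact Clopper-Pearson 95% interval 66.2% to 70.5%) overlapped a replicate 2 peak by at least 1 bp, beside 66.4% of all replicate 1 peaks. Of 1484 replicate 2 peaks, 1299 (87.5%, 85.7% to 89.2%) overlapped a replicate 1 peak, beside 84.4% of all replicate 2 peaks. On the 3 arms together the shares were 66.9% (65.5% to 68.3%) and 86.6% (85.5% to 87.7%), so the intervals of X and of the arms overlapped in both directions. These intervals cover counting error only, and the shares are the 2 directions of the same overlap. Sharing on X followed width, from 20% of replicate 1 peaks under 50 bp to 98.8% of those of 600 bp or more. The median width was 196 bp for shared and 61 bp for unshared peaks in replicate 1, and 157 and 37 bp in replicate 2.

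Unshared X peaks often lay beside a peak of the other replicate. A replicate 2 peak lay at most 1 kb from 280 (47.8%) of the 586 in replicate 1, against 42.0% on 3R, 38.6% on 3L and 39.4% on 2L. A replicate 1 peak lay equally near 116 (62.7%) of the 185 in replicate 2, against 61.8% on 3R, 64.4% on 3L and 59.3% on 2L. X was above the arms in replicate 1 only, and a denser list offers a near neighbour more often. In replicate 1, 69 unshared X peaks (11.8%) were more than 10 kb from any peak of replicate 2.

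Scores of peaks at the same place ran together. Over 1313 overlapping pairs on X, the scores had a Spearman's rho of 0.874 and a Pearson's r of 0.901, as a description of these pairs. Replicate 1 had the higher score in 1151 pairs (87.7%), and the log2 ratio of replicate 1 over replicate 2 had a median of 0.23 on X (interquartile range 0.10 to 0.38), against 0.18 on 3R, 0.24 on 3L and 0.27 on 2L. Only 2 of the 1313 pairs differed by more than 2-fold. The largest departures toward replicate 1 were a pair at 13783442 to 13784144, scored 4.24 in replicate 1 and 1.86 in replicate 2, another at 2186536 to 2187668, with 2.51 and 1.23, and the one at 19389446 to 19390142, with 3.20 and 1.62. Those toward replicate 2 lay at 5593506 to 5594117, with 3.10 and 4.69, at 12472980 to 12473672, with 2.98 and 4.48, and again at 2186536 to 2187668, where a second replicate 2 peak scored 3.63 against 2.51. In each of these 6 pairs the replicate 1 peak was over 600 bp wide and the replicate 2 peak shorter, so unlike extents were compared. The position at 2186536 appeared on both sides because a single replicate 1 peak of 1133 bp overlapped 2 replicate 2 peaks of 507 and 383 bp with scores of 1.23 and 3.63.

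The ends of X differed from its interior in different measures. In the whole-series list, 130 regions lay toward the telomere, 202.5 bp wide and scored 2.99 in the median, and 85 lay toward the centromere, with 221 bp and 2.52, against 215 bp and 2.63 in the interior. On the telomere side the replicate medians were 3.09 and 2.79 in score and 120 and 115 bp in width, against 2.67 and 2.37 and 139 and 137 bp in the interior. On the centromere side they were 2.63 and 2.30 in score and 175 and 152 bp in width. Single peaks were thus narrower and higher in score toward the telomere, and wider at a similar score toward the centromere.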

How the data were processed

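MCM2-7 was immunoprecipitated from Kc167 chromatin and made into libraries for Illumina sequencing, per the labels' protocols. The files name PeakSeq as the peak caller and, per the file headers, FlyBase release 5.1 as the build. Not given in the sources used here are the aligner, the caller's settings and threshold, and whether the input was used. The authors deposited a score with each peak and stated no unit for it. Other deposited values are the first and last base of each peak, counted from 1. Without read counts depth is unknown, and a place where no peak could be called cannot be told apart from one without MCM.

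From these lists, widths, gaps, runs, window counts, covered bases and overlaps were computed with Python 3.11.15, pandas 2.3.3, NumPy 2.4.6 and SciPy 1.17.1, and the figures were drawn with matplotlib 3.10.9. A peak belonged to the window that held its first base. The regions of the whole-series list are the joined extents of overlapping peaks of both replicates. A gap is the number of bases between neighbouring peaks. The group was taken from the sample titles, as were replicate numbers. The functions were tested on simulated data with planted answers. The alternatives are a stricter score, narrow peaks left out, peaks within 1 kb merged, another overlap, other intervals, windows and joining distances, the whole-series list and single replicates.

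Named regions are the 8 highest scores, the 8 widest, the 4 most isolated, the 6 densest windows, the 6 longest empty stretches, the 4 longest runs, the regions at the bounds and the 3 pairs with the most unequal scores in each direction. The interval, its members and the measures were chosen with earlier results of these data known. No genome or gene annotation of release 5.1 was used here, so regions are named by position and no sequence or gene is given.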

Additional observations from a re-analysis of the deposited data

How the results depend on the processing

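Peak lists carry no read numbers, so no depth limit can be stated for any value, and all comparisons rest on 2 samples. No paired analysis was possible because the 2 immunoprecipitations form a single group, and the input, which shares a number with replicate 1, has no list analysed here. The evenness of 1 Mb windows and the share of broad peaks, with their alternatives, were added after the data were seen. Differences from the reported values below had no tested cause, apart from those that follow from fewer or merged peaks.

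X kept more peaks per Mb, more covered bases and shorter gaps than the 3 arms under all alternatives run. With only the 50% of peaks with the higher score, X held 48.7 peaks per Mb, 1.33 times the arms, 1.37 times their covered bases and a gap ratio of 0.723. The ratio of median widths reversed to 0.989, broad peaks were 1.33 times as frequent, 17% of X peaks lay in runs of 5 or more, 17 windows were empty, 675 regions remained in the interval, and the ratio of the variance of 1 Mb counts over their mean, X to the average of the 3 arms, was 0.574 in place of 0.336. With peaks within 1 kb merged, these were 62.0 peaks per Mb, a density ratio of 1.14, a gap ratio of 0.838, a width ratio of 1.08, 12.8% in runs and a variance ratio of 0.561. In the whole-series list they were 68.2 per Mb, a gap ratio of 0.811, 27.8% in runs and a ratio of broad regions of 1.45.

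With arms trimmed by 2 Mb at each end, the gap ratio was 0.772 and that of broad peaks 1.51, and without peaks under 20 bp these were 0.774 and 1.51. Runs held 15.7% of X peaks when joined at 2 kb and 64.9% at 10 kb. The variance ratio was 0.460 with windows moved by 500 kb, 0.277 with windows of 2 Mb, 0.305 without the lowest window of each interval and 0.947 with windows of 800 kb. With the last moved by 400 kb X was again lowest, with a variance of 3.05 times the mean, against 3.97 on 3R, 3.74 on 3L and 10.7 on 2L. Without replicate 1 or replicate 2, X held 80.7 to 100.8 peaks per Mb, the density ratio was 1.19 to 1.22, runs held 33.3% to 43.5% of peaks, 9 to 14 windows were empty and the variance ratio was 0.323 to 0.348.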

Other observations

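Some of the highest scores of single replicates in the X interior belonged to very short peaks outside the list of shared regions. These were chosen after their values were seen. In replicate 1 the second highest score on X, 10.9, was that of a peak of 15 bp from 12861524 to 12861538. Replicate 2 had a peak of 6 bp from 12861553 to 12861558 with a score of 7.15, the fifth highest on X, 14 bp away. Both are counted as unshared because they do not overlap, although they are nearly at the same place. The other unshared peaks with leading scores in replicate 2 were 4 bp wide, from 12381485 to 12381488 with a score of 8.31, and 3 bp wide, from 9365364 to 9365366 with 7.21, and their nearest replicate 1 peaks were 6975 and 907 bp away. Among the 50 highest scores of X, 39 were shared in replicate 1 and 43 in replicate 2, beside 68.4% and 87.5% of all X peaks. Peaks under 50 bp were 6 and 7 of these 50, a smaller share than the 16.4% and 16.8% among all X peaks. Of these short peaks with leading scores, 6 and 5 were unshared. A peak of 125 bp from 20359662 to 20359786 scored 7.27 in replicate 1, the eighth highest there, and the nearest peak of replicate 2, 298 bp away, scored 3.06.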
